A study of Mus musculus with 6 samples.

Results

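Chemokines are small secreted proteins, and their receptors are G protein-coupled receptors on the cells that follow them. The genes described here are the protein-coding genes whose GENCODE M21 symbol names a CC, CXC, CX3C or C chemokine, one of their receptors, or an atypical chemokine receptor. Of 56262 genes listed in the counts, 66 fitted these symbols, and 54 of the 66 had at least 10 counts summed over all samples. They comprise 19 CC ligands, 12 CXC ligands, 2 CX3C or C ligands, 10 CC receptors, 5 CXC receptors, 2 CX3C or C receptors and 4 atypical receptors.

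The RNA came from leg muscle of mouse fetuses at embryonic day 18.5, with 3 wild-type (WT) and 3 SYISL knockout (KO) samples. SYISL is a long noncoding RNA whose gene overlaps an intron of Synpo2, and the study asks what its loss does in embryonic muscle. Both parents of a fetus had the same genotype, so the effects of the maternal and the fetal genotype cannot be told apart. Neither the number of fetuses behind a sample nor the litter is given, so the spread between samples may be partly technical.

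A chemokine binds matrix sugars and forms a gradient, and a receptor on a leukocyte or progenitor signals through Gi proteins and turns the cell toward it. Atypical receptors bind chemokines without this signalling and take them up or carry them across cells. In developing limbs, Cxcl12 and its receptor Cxcr4 are known for guiding migrating muscle precursors, and Ccr2 and its ligands are known for bringing monocytes into injured muscle.

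The libraries held 82054811 to 102233181 counts. Synpo2, the host gene, was higher in KO by a log2 fold change of 0.66 (SE 0.0632), a value that does not show the deletion itself, and SYISL was not analysed here. The tissue label was checked against marker lists, and no gene of any list was at 0 in all samples. The 8 muscle fibre markers summed to 19305 to 21646 CPM in WT and 40865 to 49937 CPM in KO. The 15 keratinocyte markers summed to 18729 to 27428 CPM in WT and 1081 to 1218 CPM in KO, and all 15 were lower in KO. CPM here are a gene's counts relative to the library size, which was scaled with TMM factors for differences in composition. All WT libraries therefore held far more keratinocyte marker RNA than all KO libraries, and the markers that differ are given again beside the results below. Xist and Y-linked counts showed tissue of both sexes in WT sample 3 and in KO samples 2 and 3. WT sample 1 had 140 Xist counts and the highest Y-linked share, 0.0218%, where the KO samples had 56075 to 78491 Xist counts. WT sample 2 and KO sample 1 had the lowest Y-linked shares, 0.00339% and 0.00367%. Sex was thus not balanced between the genotypes. In such bulk samples, fewer cells of a type and less RNA per cell cannot be told apart.

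Of the 54 members, 42 passed the filter on low counts and were tested, and 12 had too few counts. A member was called where edgeR's quasi-likelihood test gave a Benjamini-Hochberg adjusted p under 0.05 over all 22071 genes tested and the fold change was over 1.5. Called members numbered 8 higher and 5 lower in KO, 31.0% of the 42. Among all genes tested 16.7% were called, 8.31% higher and 8.39% lower. The share of called members was thus above that of all genes, chiefly through calls in the higher direction. Without the fold threshold, 15 members were higher and 6 lower, where 21.9% and 23.1% of all genes were (45.0% in either direction). The median log2 fold change of the 42 was 0.16, beside -0.0041 over all genes tested. The WT and KO values did not overlap in 23 of the 42 (54.8%), among them all 13 called, close to the 55.9% of all genes tested.

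**Figure D1:**
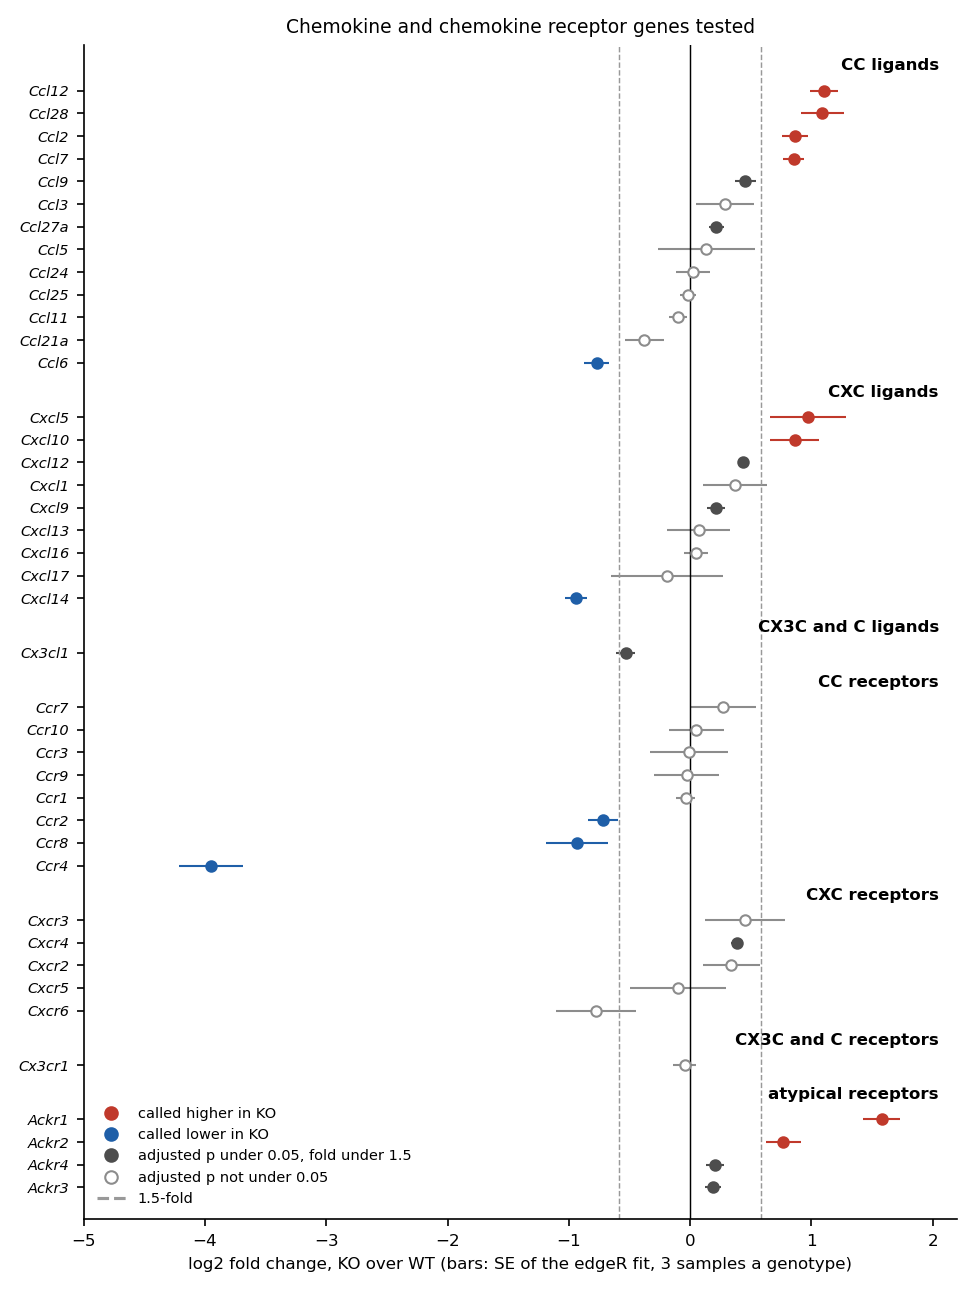
Log2 fold change of KO over WT for the members tested, grouped by class, with horizontal bars for the SE of the edgeR fit and dashed lines at the 1.5-fold threshold. The called ligands lie on both sides of 0, the 3 called CC receptors lie to the left, and Ackr1 at 1.58 and Ccr4 at -3.95 are the outermost points.

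Promoter sequences are shown for 3 ligands, because the ligands called higher include Cxcl10, of the neighbouring pair Cxcl9 and Cxcl10, and Ccl12, of the Ccr2 ligands. Each is the 250 bases before the annotated start, taken from RefSeq on GRCm38.p6 and written 5′ to 3′ on the gene's strand. Capitals mark matches to 4 motifs, namely the NF-kB consensus, GAAANNGAAA as an interferon-response form, TGANTCA as the AP-1 form and TATAAA. All were searched on both strands except TATAAA, which was searched on the gene's strand. The Cxcl10 window is chr5:92348890-92349139 on the minus strand, the Cxcl9 window chr5:92328080-92328329 on the minus strand and the Ccl12 window chr11:82101595-82101844 on the plus strand.
Cxcl10: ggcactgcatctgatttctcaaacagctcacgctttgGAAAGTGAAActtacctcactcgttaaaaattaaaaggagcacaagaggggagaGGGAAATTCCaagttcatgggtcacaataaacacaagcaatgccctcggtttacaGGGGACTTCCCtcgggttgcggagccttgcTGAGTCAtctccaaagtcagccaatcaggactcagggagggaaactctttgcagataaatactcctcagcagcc
Cxcl9: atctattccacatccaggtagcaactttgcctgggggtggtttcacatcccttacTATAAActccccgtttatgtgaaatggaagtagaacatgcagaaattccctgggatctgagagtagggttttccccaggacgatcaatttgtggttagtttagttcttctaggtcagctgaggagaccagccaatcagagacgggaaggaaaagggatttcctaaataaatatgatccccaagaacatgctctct
Ccl12: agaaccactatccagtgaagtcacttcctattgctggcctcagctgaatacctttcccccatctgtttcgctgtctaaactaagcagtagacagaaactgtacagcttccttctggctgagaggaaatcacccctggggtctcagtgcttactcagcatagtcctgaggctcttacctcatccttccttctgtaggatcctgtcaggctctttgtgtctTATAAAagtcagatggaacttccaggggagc
In the Cxcl10 window GAAANNGAAA stood at -213 to -204 from the start and NF-kB matches at -159 to -150, -104 to -95 and -103 to -94, the last pair overlapping. Its AP-1 form stood at -74 to -68. Cxcl9 and Ccl12 held only TATAAA, at -195 to -190 and at -31 to -26. Windows were found for 41 members, and of those called Ccl2, Ccl7 and Cxcl5 had no entry. Counting a gene once where any of its windows matched, NF-kB was present in 10 of the 41 (24.4%) and in 8.23% of all 27025 genes with a window, and TATAAA in 12 (29.3%) against 8.94%. TGANTCA was present in 6 members (14.6%) against 7.82% of all genes. Cxcl10 and Cxcl14 were the members that held GAAANNGAAA, as did 3.46% of all genes, and these were called in opposite directions. A match is a string of letters, not a shown binding site.

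Among the CC ligands, 4 of the 13 tested were called higher and 1 lower, beside 8.31% and 8.39% of all genes tested. The rises included all 3 of the classical Ccr2 ligands, which attract monocytes. Ccl12 (ENSMUSG00000035352.3, chr11:82101845-82103400) was at 1.65, 1.25 and 1.46 CPM in WT and at 3.12, 3.19 and 3.08 CPM in KO. Its log2 fold change was 1.10 (SE 0.113, adjusted p = 4.4e-05 by this edgeR test, as for every adjusted p below). Every KO sample lay above every WT sample, and the KO samples were close together. Ccl2 (ENSMUSG00000035385.5, chr11:82035571-82037453) was at 2.10, 1.72 and 2.11 CPM in WT and at 3.32, 3.61 and 3.91 CPM in KO, which gave a log2 fold change of 0.86 (SE 0.110, adjusted p = 0.000187). Ccl7 (ENSMUSG00000035373.2, chr11:82045712-82047525), which binds Ccr1 and Ccr3 as well, was at 1.90, 1.74 and 1.76 CPM in WT and at 3.28, 3.15 and 3.35 CPM in KO. That gave a log2 fold change of 0.85 (SE 0.0881, adjusted p = 4.74e-05). WT sample 2 was the lowest of all samples for each of the 3 genes.

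These 3 genes lie in 1 cluster of CC ligand genes on chromosome 11, chr11:82035571-82305690 in mm10. Their summed CPM was 4.71 to 5.65 in WT and 9.71 to 10.3 in KO. Ccl11, the eotaxin gene that lies between Ccl7 and Ccl12, was at 8.35, 7.27 and 7.74 CPM in WT and at 7.66, 7.05 and 7.09 CPM in KO. Its values overlapped, and its log2 fold change of -0.10 (SE 0.0737) did not pass the test, with an adjusted p of 0.305 in edgeR. The other members of the cluster, Ccl8 and Ccl1, had 24 and 29 counts over all samples and were not tested. The genes of this cluster that were tested thus did not change together, as 3 rose and Ccl11 did not pass.

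Ccl28 (ENSMUSG00000074715.3, chr13:119623819-119654359), an epithelial chemokine that binds Ccr10 and Ccr3, was at 1.34, 0.823 and 1.17 CPM in WT and at 2.03, 2.42 and 2.69 CPM in KO. The log2 fold change was 1.09 (SE 0.179, adjusted p = 0.000896 in edgeR). Ccl6 (ENSMUSG00000018927.3, chr11:83587882-83593087), a ligand of Ccr1 made by myeloid cells, was the only CC ligand called lower. It was at 6.25, 6.74 and 5.34 CPM in WT and at 3.26, 3.90 and 3.56 CPM in KO, which gave a log2 fold change of -0.77 (SE 0.105, adjusted p = 0.000290). No KO sample reached the lowest WT sample.

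Ccl9, which also binds Ccr1, is the neighbour of Ccl6 in a second cluster, chr11:83525778-83664683, and went the other way. Its values were 9.56, 11.1 and 12.4 CPM in WT and 14.9, 15.5 and 14.8 CPM in KO. It passed the test with a log2 fold change of 0.46 (SE 0.0887, adjusted p = 0.00250 in edgeR), which is under the fold threshold. The adjacent Ccl3 and Ccl5 did not pass, with log2 fold changes of 0.29 and 0.13 at means under 1 CPM, and Ccl4 had 46 counts and was not tested. This cluster therefore held 1 gene higher at a modest fold and 1 called lower.

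Of the other CC ligands, Ccl27a, a skin chemokine that binds Ccr10, passed the test at a small fold, with 9.86, 10.1 and 10.8 CPM in WT and 12.3, 12.0 and 11.5 CPM in KO (log2 fold change 0.21, SE 0.0622, adjusted p = 0.0197 in edgeR). It did not pass with library sizes alone (0.123) or without WT sample 1 or KO sample 2 (0.0626 and 0.0556). It has near-identical copies, so reads of Ccl27a and Ccl27b cannot be fully told apart. Ccl25, known as a thymic and gut ligand of Ccr9, was at 7.16 to 7.87 CPM in WT and 7.22 to 7.61 CPM in KO. Ccl24, another eotaxin, was at 1.53, 1.77 and 1.98 CPM in WT and at 1.91, 1.51 and 1.95 CPM in KO. Both overlapped and did not pass the test, with log2 fold changes of -0.01 and 0.02. Over 204 of its exonic bases Ccl25 overlaps Elavl1 on the opposite strand. Elavl1 had 56579 counts in all against 4236 for Ccl25, and the part of its reads in the Ccl25 value was not tested. Ccl21a, a lymphatic ligand of Ccr7 that also has copies, was under 1 CPM on average and did not pass, with a log2 fold change of -0.38.

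The CXC ligands held the 2 chemokine mRNAs that were most abundant per exon length, and these moved in opposite directions. Cxcl14 (ENSMUSG00000021508.11, chr13:56288643-56296551), an epithelial and stromal chemokine whose receptor is debated, was at 84.1, 105 and 88.2 CPM in WT and at 53.2, 45.7 and 45.3 CPM in KO. The log2 fold change was -0.94 (SE 0.0884, adjusted p = 2.48e-05 in edgeR). Cxcl12 (ENSMUSG00000061353.11, chr6:117168535-117181367), the ligand of Cxcr4 and Ackr3, was at 151, 141 and 152 CPM in WT and at 201, 201 and 200 CPM in KO. It passed the test with a log2 fold change of 0.44 (SE 0.0419, adjusted p = 2.78e-05 in edgeR), under the fold threshold, and its KO samples differed less than its WT samples. For both genes the genotypes were fully separated.

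Together these genes changed the make-up of the ligand mRNA. Cxcl12 made up 48.9%, 44.1% and 48.4% of the CPM summed over all ligands in the samples of WT and 60.0%, 60.9% and 61.0% of it in those of KO. Cxcl14 made up 27.3%, 32.8% and 28.1% of it in WT, but 15.9%, 13.8% and 13.8% in KO. The ratio of Cxcl12 to Cxcl14 counts was 1.34 to 1.79 in WT and 3.78 to 4.41 in KO, while the summed CPM of all ligands was 308 to 320 in WT and 327 to 335 in KO. Long mRNAs weigh more in such a sum. The total differed little, and its composition shifted.

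Levels were also taken per kilobase of exon, with all annotated exons of a gene merged, 8176 bases for Cxcl12 and 1827 for Cxcl14. The length of the transcripts present was not measured, so ranks between genes depend on this choice of length. Cxcl14 stood first in WT at 50.6 ± 5.99 CPM per kb (SD, n = 3) and Cxcl12 second at 18.1 ± 0.744. In KO these were 26.3 ± 2.45 and 24.5 ± 0.0986 CPM per kb, so the gap between them was within 1 SD of Cxcl14. Cxcr4 came next in both genotypes, at 10.2 ± 0.262 CPM per kb in WT and 13.3 ± 0.138 in KO. Behind it in WT were Ccl11 at 7.20 ± 0.497 and Ackr3 at 6.41 ± 0.311 CPM per kb, and then Cx3cr1 at 4.50 ± 0.421 and Ccl27a at 4.32 ± 0.204, a pair that did not differ beyond its spread. Ccl12 moved from place 10 in WT to place 6 in KO, and Ccr4 from place 21 to place 44.

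**Figure D2:**
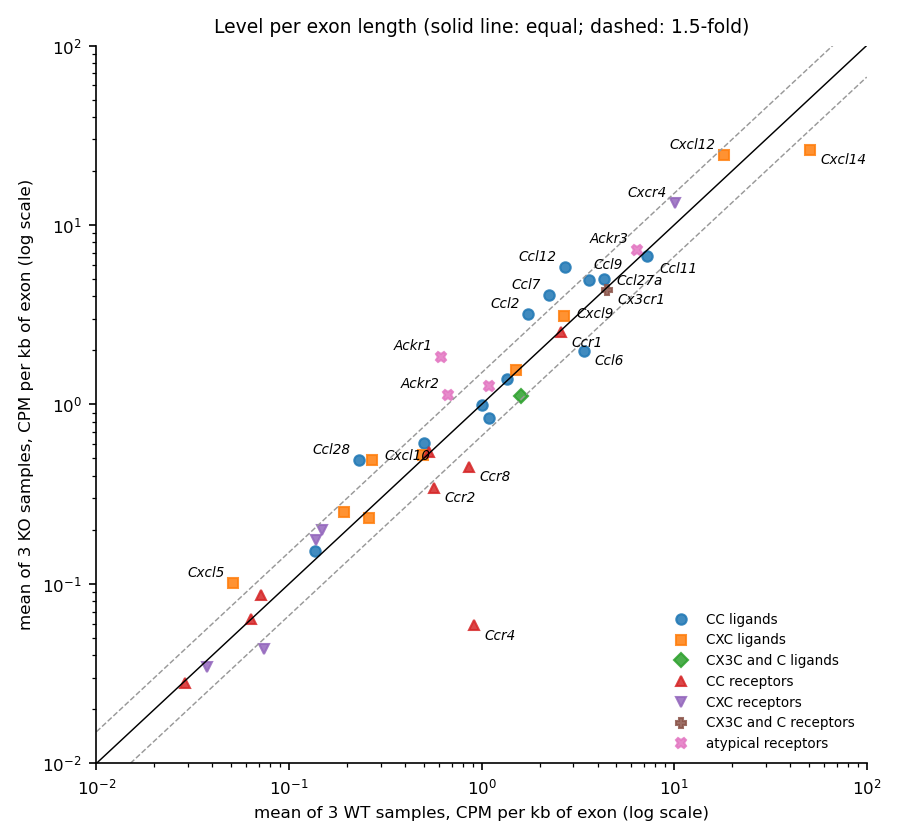
Mean CPM per kb of exon in the 3 KO samples (vertical, log scale) against the 3 WT samples (horizontal, log scale) for the members tested, with marker shapes for the classes, a solid line at equality and dashed lines at 1.5-fold. Cxcl14 lies at 50.6 in WT and 26.3 in KO, level in KO with Cxcl12 at 24.5, and Ccr4 lies farthest below the line.

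Cxcl10 (ENSMUSG00000034855.13, chr5:92346638-92348889), an interferon-induced ligand of Cxcr3, was called higher. It was at 0.613, 0.750 and 0.464 CPM in WT and at 1.30, 1.07 and 0.925 CPM in KO, which gave a log2 fold change of 0.86 (SE 0.204, adjusted p = 0.0071 in edgeR). Over its 2252 exonic bases, 133 overlap exons of Art3 on the opposite strand. Art3 had 20340 counts in all against 483 for Cxcl10 and rose by a log2 fold change of 2.15. The strand setting of the counting is not stated, so the part of Art3 reads in the Cxcl10 value was not tested.

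Cxcl9, another Cxcr3 ligand, lies next to Cxcl10 and stood at 2.68 CPM per kb of exon in WT, against 0.270 for Cxcl10. It was at 8.54, 8.18 and 7.55 CPM in WT and at 8.92, 9.24 and 9.92 CPM in KO, and it passed the test at a small fold (log2 fold change 0.21, SE 0.0721, adjusted p = 0.0384 in edgeR). It did not pass with library sizes alone (0.138), without a filter (0.0537) or without WT sample 2, WT sample 3, KO sample 2 or KO sample 3 (0.0597 to 0.160). A further Cxcr3 ligand, Cxcl11, is annotated as a polymorphic pseudogene in GENCODE M21 and so is not among the members, and its 57 counts were too few to test. Cxcl5 (ENSMUSG00000029371.7, chr5:90759360-90761624), a neutrophil-attracting ligand of Cxcr2, was called higher on few counts, 81 in all. Its values were 0.0634, 0.109 and 0.114 CPM in WT and 0.213, 0.189 and 0.164 CPM in KO, which gave a log2 fold change of 0.97 (SE 0.314, adjusted p = 0.0295 in edgeR). This call was lost without WT sample 1, KO sample 1 or KO sample 2, where the log2 fold change was 0.75, 0.88 and 0.97, and with DESeq2.

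Cxcl16, a membrane-bound ligand of Cxcr6, was at 4.31, 4.96 and 4.35 CPM in WT and at 4.16, 4.81 and 5.11 CPM in KO. Its values overlapped and its log2 fold change was 0.05. Over 552 of its exonic bases Cxcl16 overlaps Zmynd15 on the opposite strand, which had 1283 counts in all against 2622 for Cxcl16. Cxcl1, Cxcl13 and Cxcl17 stayed under 1 CPM on average and did not pass, with log2 fold changes of 0.37, 0.07 and -0.19. Cx3cl1, or fractalkine, the membrane-bound ligand of Cx3cr1, was lower with no overlap, at 5.91, 6.75 and 6.30 CPM in WT and 4.13, 4.65 and 4.33 CPM in KO. Its log2 fold change of -0.53 (SE 0.0807, adjusted p = 0.000557 in edgeR) was under the fold threshold.

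**Figure D3:**
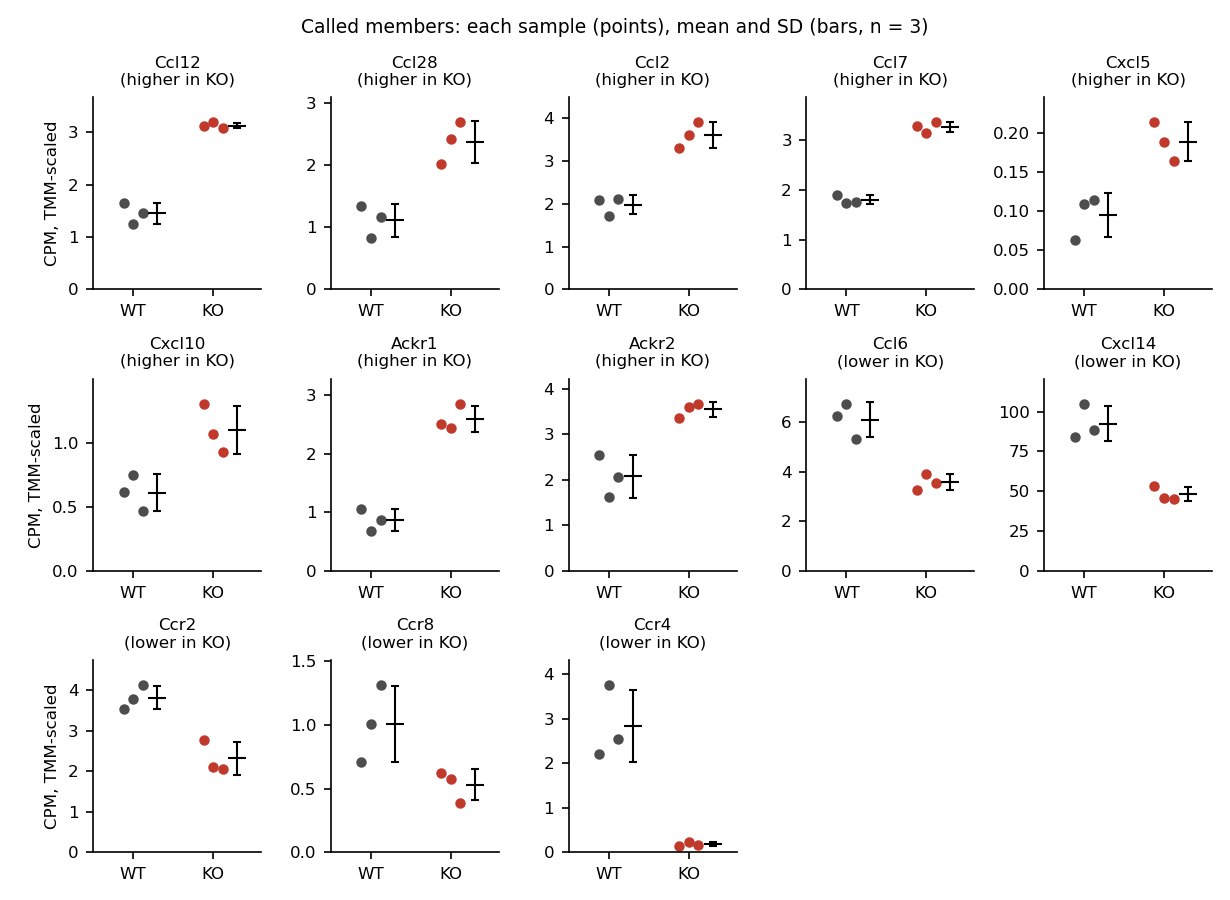
CPM in each of the 3 WT (grey) and 3 KO (red) samples for the 13 called members, with the mean and SD to the right of each group (n = 3, vertical axes start at 0 and differ between panels). In every panel the 2 genotypes are separated, from Ccr4 at 2.22 to 3.75 CPM in WT and 0.139 to 0.231 in KO down to Ccr8, whose lowest WT sample at 0.708 lies close to its highest KO sample at 0.619.

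Among the CC receptors none of the 9 tested was called higher and 3 were called lower, beside 8.31% and 8.39% of all genes tested. Ccr4 (ENSMUSG00000047898.7, chr9:114490316-114504916), a receptor of skin-homing and regulatory T cells, was at 2.22, 3.75 and 2.55 CPM in WT and at 0.139, 0.231 and 0.175 CPM in KO. Its log2 fold change of -3.95 (SE 0.263, adjusted p = 2.54e-06 in edgeR) was the largest in size among the 42 tested. Mean CPM in KO was 0.0639 times that in WT, and the highest WT value was that of sample 2. Its ligands Ccl17 and Ccl22 had 43 and 42 counts in all and were not tested. Ccl17 was at 0.0758 to 0.145 CPM in WT and 0.0308 to 0.0640 in KO. Ccl22 was at 0.0847 to 0.133 CPM in WT and 0.0107 to 0.0630 in KO. For both, every KO sample was below every WT sample, as in 28.5% of all genes tested. Of the other members not tested, Cxcl15 also lay fully below WT and Ccr6 fully above it.

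Ccr8 (ENSMUSG00000042262.5, chr9:120092114-120094906), also known from skin T cells, binds Ccl1 and, in mice, Ccl8. It was at 0.708, 1.004 and 1.31 CPM in WT and at 0.619, 0.577 and 0.391 CPM in KO, which gave a log2 fold change of -0.93 (SE 0.254, adjusted p = 0.0142 in edgeR). The call was lost without WT sample 3, at -0.69, or without KO sample 3, at -0.75. Ccr2 (ENSMUSG00000049103.14, chr9:124101950-124113557), the receptor that inflammatory monocytes use to leave the marrow and enter tissue, was at 3.55, 3.78 and 4.12 CPM in WT and at 2.78, 2.12 and 2.06 CPM in KO. Its log2 fold change was -0.72 (SE 0.126, adjusted p = 0.00136 in edgeR), and the genotypes did not overlap.

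The direction of Ccr2 was thus opposite to that of its ligands Ccl2, Ccl7 and Ccl12. Of 42 ligand and receptor pairs taken from background knowledge, 34 had both genes tested, and these 3 were the pairs with a ligand called higher and a receptor called lower. In 4 pairs both were called higher, each with the atypical receptor Ackr1 or Ackr2, and in none were both called lower. Pairs that share a gene are not independent, and the list leaves out some pairs, such as Ccl7 with Ccr1 or Ccr3. Ccr1, the receptor of Ccl6 and Ccl9, was at 6.88, 7.10 and 7.99 CPM in WT and at 7.13, 6.93 and 7.35 CPM in KO, with overlap and a log2 fold change of -0.04. Ccr2 and Ccr1 lie on chromosome 9 in a cluster with Ccr3, Ccr9, Cxcr6 and Xcr1, and of these genes Ccr2 alone was called, with Xcr1 not tested. Ccr7 had a log2 fold change of 0.27, Ccr10, Ccr3 and Ccr9 of 0.05, -0.01 and -0.03, and all of these were under 1 CPM on average and did not pass.

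Cxcr4 (ENSMUSG00000045382.6, chr1:128588199-128592293), the signalling receptor of Cxcl12, was the one CXC receptor past the adjusted p threshold. It was at 17.9, 18.8 and 18.4 CPM in WT and at 23.8, 23.9 and 24.3 CPM in KO, which gave a log2 fold change of 0.39 (SE 0.0474, adjusted p = 0.000147 in edgeR) and under the fold threshold. Ligand and receptor thus differed in the same direction and by similar sizes, 0.44 and 0.39. Cxcr2, Cxcr3, Cxcr5 and Cxcr6 were each under 1 CPM on average and did not pass, with log2 fold changes of 0.34, 0.45, -0.10 and -0.78. Cx3cr1, a receptor of tissue macrophages and monocytes, was at 18.8, 19.6 and 22.4 CPM in WT and at 22.3, 18.0 and 18.7 CPM in KO. Its values overlapped, with a log2 fold change of -0.04 (SE 0.0938).

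Of the 4 atypical receptors, 2 were called higher, beside 8.31% of all genes tested. The other 2 passed the adjusted p threshold at small folds, a pass that depended on the setting. Ackr1 (ENSMUSG00000037872.5, chr1:173331886-173333750), also called Duffy antigen receptor, binds inflammatory CC and CXC chemokines and is known from venules and red cell precursors. It was at 1.06, 0.678 and 0.862 CPM in WT and at 2.51, 2.43 and 2.85 CPM in KO, which gave a log2 fold change of 1.58 (SE 0.156, adjusted p = 3.54e-05 in edgeR), the largest rise among the 42 tested. Of its exonic length, 361 bases (25.7%) are shared with Cadm3 on the same strand. Cadm3 had 7678 counts in all, against 991 for Ackr1, and rose by a log2 fold change of 1.29, and the part of its reads in the Ackr1 value was not tested.

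Ackr2 (ENSMUSG00000044534.8, chr9:121898355-121911074), which scavenges inflammatory CC chemokines such as Ccl2 on lymphatic vessels, was at 2.56, 1.62 and 2.07 CPM in WT and at 3.37, 3.61 and 3.67 CPM in KO. The log2 fold change was 0.77 (SE 0.145, adjusted p = 0.00212 in edgeR), and WT sample 2 was again the lowest. Ackr3, the scavenger of Cxcl12, was at 22.5, 20.5 and 21.4 CPM in WT and at 22.4, 25.7 and 25.2 CPM in KO. It overlapped by KO sample 1, with a log2 fold change of 0.19 (SE 0.0644, adjusted p = 0.0402 in edgeR), and did not pass with library sizes alone (0.165) or without WT sample 2, WT sample 3, KO sample 2 or KO sample 3. Ackr4, which scavenges Ccl19, Ccl21 and Ccl25, was at 5.93, 5.93 and 5.80 CPM in WT and at 6.38, 7.29 and 6.67 CPM in KO (log2 fold change 0.20, SE 0.0718, adjusted p = 0.0426 in edgeR). It did not pass with DESeq2 (0.0782), with library sizes alone (0.158), without a filter or without any one sample other than KO sample 1. Over 479 of its exonic bases it overlaps Acad11 on the opposite strand.

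The 12 members not tested had 10 to 46 counts over all samples, and those tested had at least 65. Besides Ccl1, Ccl4, Ccl8, Ccl17 and Ccl22 they were Ccl27b, Cxcl2, Cxcl3, Cxcl15, Xcl1, Xcr1 and Ccr6. A count of 0 allows up to 3 counts, 0.0284 to 0.0363 CPM in these libraries, and Ccr6 in WT sample 3 and Cxcl2 in KO sample 1 were at 0. At this depth no difference in these genes could be tested. The 12 genes under the minimum of 10 counts had at most 5 counts, among them Ccl19, Ccl20, Ccl26 and Cxcr1, and 7 of the 12 were copies on unplaced scaffolds at 0.

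Genes that act with the chemokines were read from the same fit. Of 8 tested chemokine-related genes outside the symbol rule, 4 were called higher and none lower. These were the platelet chemokines Ppbp and Pf4, with log2 fold changes of 1.35 (SE 0.228) and 0.87 (SE 0.069), the chemerin gene Rarres2 at 0.75 (SE 0.0576), and Ccrl2 at 0.63 (SE 0.176), which presents chemerin. Pf4 was at 20.5 to 22.4 CPM in WT and 36.0 to 43.0 CPM in KO. Mif, the most abundant gene of the list, passed the adjusted p threshold with a log2 fold change of -0.35 and was not called.

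Among 37 genes of receptor signalling and desensitisation, such as Gi subunits, arrestins and Rac, none was called in either direction, with 10 higher and 8 lower by adjusted p alone. Gnai2, the most abundant, had a log2 fold change of 0.13, and the list's median was 0.13. Of 6 tested proteases that trim chemokines, Cpn2 was called higher at under 1 CPM, and Mmp14, the most abundant, had a log2 fold change of 0.16. Of 7 endothelial adhesion molecules, Sele was called higher at 0.90 (SE 0.134) and Madcam1 lower at -1.06 (SE 0.172), and Jam2, the most abundant, passed only the adjusted p threshold, at 0.56. The receptor signalling genes past the adjusted p threshold thus all stayed under the fold threshold. Their 10 higher and 8 lower of 37 stand beside 21.9% and 23.1% of all genes tested.

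Interferon-induced genes, the group to which Cxcl10 belongs by function, were called higher in 13 of 14 cases, and the list's summed CPM was 88.2 to 91.0 in WT and 207 to 218 in KO. The median log2 fold change of the list was 1.90, beside -0.0041 over all genes tested. Examples were Ifit1 at 3.60 (SE 0.150), Oasl2 at 3.10 (SE 0.0608) and Usp18 at 2.81 (SE 0.164), while Stat2, the most abundant, was at 0.61 (SE 0.0494), all as log2 fold changes. Irf1 passed the adjusted p threshold under the fold threshold. Of 12 tested inflammatory cytokine and NF-kB genes, 1 was called higher and 2 lower. The interleukin 1 antagonist Il1rn fell with a log2 fold change of -4.48 (SE 0.172), Il1a with one of -2.29 (SE 0.105), and Il6 was higher at under 1 CPM. Of the 13 genes of this list with counts, 8, Il1rn among them, were highest in WT sample 2 and lowest in WT sample 1, the order of most keratinocyte markers and of 25.5% of all genes tested. Rela, the most abundant, did not pass, at -0.09.

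Markers of the cells that make or answer chemokines moved as well. Of 12 macrophage markers 7 were called higher and none lower, and by adjusted p at any fold 10 were higher and 1 lower. Their summed CPM was 301 to 320 in WT and 471 to 511 in KO, and their median log2 fold change was 0.67. Cd163 rose most, with a log2 fold change of 1.91 (SE 0.0696), followed by Fcgr1 at 0.99 and Mrc1 at 0.91, while Cx3cr1 and Ccr1 among the members did not pass and Ccr2 fell. Of 5 markers of all leukocytes, Ptprc was called higher at 0.77 (SE 0.0737), and Laptm5, the most abundant, passed the adjusted p threshold alone. Of 6 mast cell markers 5 were called higher, among them Fcer1a at 3.14 (SE 0.156), Mcpt4 at 1.09 and Cpa3 at 0.72.

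T and NK cell markers were split, with Cd3e and Cd4 called higher at 1.21 (SE 0.0867) and 0.64 and Lck and Nkg7 lower at -0.59 and -0.82, of 6 tested. Their sum was 6.89 to 7.55 CPM in WT and 11.0 to 11.9 CPM in KO. Without Cd3e the sum was 3.97 to 4.50 CPM in WT and 4.05 to 4.57 CPM in KO, with overlap. Of the neutrophil list, 2 of 8 tested were called higher, both under 1 CPM, and its sum ranged from 7.09 to 26.6 CPM in WT and 10.9 to 15.2 CPM in KO. No dendritic or Langerhans cell marker of 5 tested was called, and 1 of 3 B cell markers was called lower, also under 1 CPM. Megakaryocyte and platelet markers had 1 of 4 tested called lower and none called higher, with a median log2 fold change of -0.77. Ppbp and Pf4, named above as platelet chemokines, were called higher. Itga2b passed the adjusted p threshold at 0.30. The list's sum was 6.84 to 8.58 CPM in WT and 8.50 to 9.15 CPM in KO.

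Of 8 blood endothelial markers none was called, and 6 were higher by adjusted p alone, beside 21.9% of all genes tested at any fold. In 7 the KO samples lay above the WT samples, beside 27.3% of all genes tested. Cdh5, the most abundant, was at 0.16. Of the lymphatic markers 3 of 5 were higher by adjusted p, and 1 of 5 was called, namely Lyve1 at 0.90 (SE 0.0658). Their sums were 708 to 738 CPM in WT and 813 to 855 CPM in KO for blood vessels, and 190 to 194 and 250 to 266 CPM for lymphatics, beside the larger rises of Ackr1 and Ackr2. The lymphatic sum includes Lyve1, the only gene of its list that was called, and a sum without Lyve1 was not made. Erythroid markers, which include cells that also carry Ackr1, were called lower in 4 of 5, among them Alas2 at -3.10 and Slc4a1 at -2.08. Fibroblast markers had 1 of 8 called higher, Ly6a at 1.25, and 7 of 8, Ly6a among them, were higher by adjusted p at any fold. Col1a1, the most abundant, did not pass. In all 8 the KO samples lay above the WT samples, again beside 27.3% of all genes tested. The fibroblast sum was 28733 to 31717 CPM in WT and 35011 to 36138 CPM in KO, beside the rise of the stromal ligand Cxcl12. The median log2 fold changes of these lists were 0.17 for blood endothelium, 0.13 for lymphatics, -2.08 for erythroid cells and 0.28 for fibroblasts. The part of these cell types in the members' values was not tested.

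Keratinocyte markers had the lowest median of the 22 lists, -3.77, led by Krt10 at -6.20, Ivl at -5.52 and Krt1 at -5.47 on the log2 scale. Within WT, 12 of the 15 were highest in sample 2 and lowest in sample 1. The same order within WT was seen in 12 of the 42 members tested, a share near the 25.5% of all genes tested. The 12 included Ccr4 and Cxcl14, both called lower, and no member called higher. The other members called lower, Ccl6, Ccr2 and Ccr8, did not have this order. Also among the 12 were Cxcr4, higher by adjusted p alone at 0.39, and Cx3cl1, lower by adjusted p alone at -0.53. Ccr4 was 3.75 CPM and Cxcl14 105 CPM in WT sample 2. The part of epidermal RNA in these values was not tested, and in this comparison genotype and epidermal content cannot be told apart. Adipocyte markers were called higher in 6 of 6, among them Cfd at 4.21, Cidec at 4.05 and Adipoq at 2.66, and muscle fibre markers in 7 of 8, among them Myh8 at 1.59 and Acta1 at 1.47. None of 4 myogenic progenitor markers was called.

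**Figure D4:**
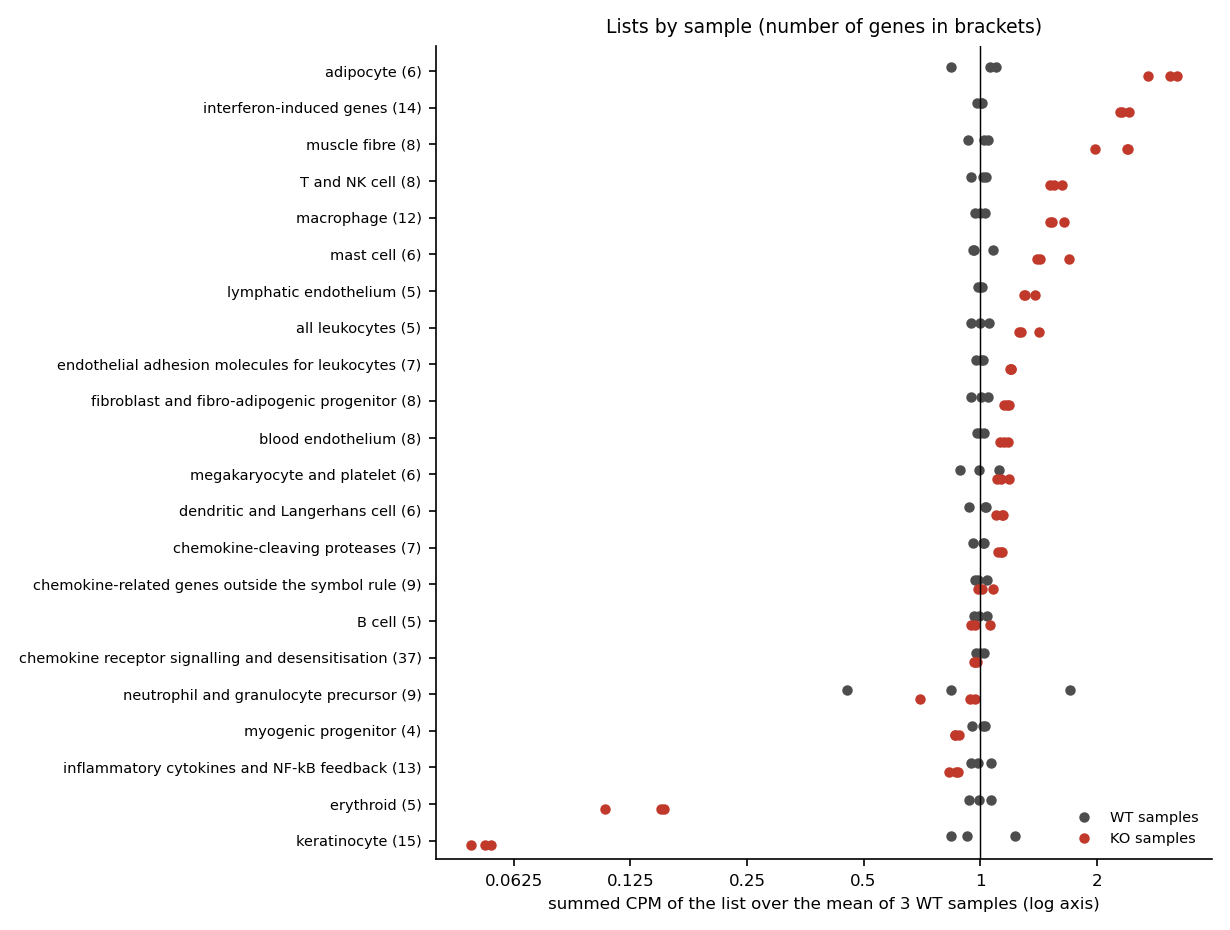
Summed CPM of each pathway or cell type list in each WT (grey) and KO (red) sample, divided by the mean of the 3 WT samples, on a log axis. Interferon-induced, macrophage, mast cell and adipocyte lists lie to the right in all KO samples, erythroid and keratinocyte lists lie far to the left, and the receptor signalling list stays near 1.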

How the data were processed

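RNA-seq of fetal leg muscle from 3 WT and 3 SYISL KO samples at embryonic day 18.5 was used, and the other experiments of the study were not analysed here. Per the methods and the submitters' processing notes, the authors trimmed 150 bp paired-end reads with Trim Galore 0.6.6, mapped them to mm10 with HISAT2 2.2.1 and counted them per gene with featureCounts 2.0.1. What they deposited are raw counts for each gene, not normalized. Which annotation and strand setting were used, and if single reads or pairs were counted, is not given in the sources used here. Values per sample and in the series table differed in 0 cells. Gene IDs were matched to GENCODE M21 (55227 found, 1035 not), from which symbols, gene types, exon lengths and coordinates were taken. The depth was 82054811 to 102233181 counts per sample, and the floor of 3 counts covers counting error only. SEs come from the edgeR fit and SDs from 3 samples, so both include the spread between samples.

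Counts were tested in R 4.3.3 with edgeR 4.0.16 (filterByExpr, TMM, quasi-likelihood F-test, genotype as the only term), with Benjamini-Hochberg adjustment over 22071 genes. The biological coefficient of variation was 7.68%. The pipeline was tested on simulated data. Replicate numbers did not pair the samples. Named are all members called, all others averaging 1 CPM or more, and from each of 22 lists the called genes with the largest changes at a mean of at least 1 CPM and the most abundant gene, 4 at most. Other members and, where a list had few calls, genes under 1 CPM were named after their values were seen. The members and lists were chosen with earlier results of these data known, so counts over lists are descriptions. Of the tested genes, 1 member and 1 marker are counted but not reported here. Alternatives were other scalings, DESeq2 1.42.0, limma-voom with limma 3.58.1, other filters and fold thresholds, a replicate block, leaving out each sample, and, chosen after seeing the data, a covariate for the share of Y-linked counts. Promoter windows came from RefSeq on GRCm38.p6, and figures were drawn with Python 3.11.15.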

Additional observations from a re-analysis of the deposited data

How the results depend on the processing

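Over 27 named members and 15 settings, 395 of 404 values left the call as it was, 8 lost it, 1 gained it and no called value changed sign. These settings kept the threshold of 1.5-fold, and in them 11 of the 13 called members kept the call. Of members not called, Ccl24, Ccl25, Ccr1, Cx3cr1 and Cxcl16, all near 0, changed sign in 16 values. Of the 21 named members under an adjusted p of 0.05, 15 stayed under it in all of these settings. Beside Cxcl5 and Ccr8, it was missed by Ackr4 in 9 of 15 settings, Cxcl9 in 7, Ackr3 in 6 and Ccl27a in 4. Cxcl5 lost it with DESeq2 (adjusted p = 0.157), with a covariate for the share of Y-linked counts (0.0696) and without WT replicate 1, KO replicate 1 or KO replicate 2, and Ccr8 lost it without WT replicate 3 or KO replicate 3. With the replicate block, 7 members were called higher and 5 lower, and the pairing cost Cxcl5 its call (edgeR adjusted p = 0.0662) and changed no other named call, though Ccl27a, Cxcl9, Ackr3 and Ackr4 no longer passed the adjusted p threshold (0.0560, 0.0863, 0.0914 and 0.0727). The numbers did not pair the samples, as deviations of same-numbered samples correlated at -0.20, -0.13 and 0.05. Cx3cl1 was called lower with library sizes alone, at -0.60. The median log2 fold change of the members was 0.23 with upper-quartile factors, 0.091 with library sizes alone, 0.14 with DESeq2, 0.12 without a filter, 0.20 with at least 10 counts in every sample, and 0.095 to 0.20 when each sample was left out. Leaving out each sample gave 7 to 8 members called higher and 4 to 6 lower, and 1660 to 1953 and 1691 to 1924 of all genes. Without a fold threshold 15 members were higher, and 4838 genes were higher and 5098 lower in all. With a fold change over 2, 3 members were called higher and 1 lower, and 774 of all genes higher and 1269 lower. The causes were not tested, beyond the fewer samples or the other threshold that such a setting brings. Depth limits the members under 1 CPM most.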
